A study of Mus musculus with 24 samples.

Results

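The genes described here code for 7 enzymes of cholesterol synthesis, Hmgcs1, Idi1, Fdps, Fdft1, Sqle, Lss and Cyp51. They were chosen by gene symbol, through the RefSeq accession of each array probe. No measured value entered that rule, but the choice was made with earlier results of these data known. All 7 are among the 22911 symbols that the array's probes matched. Uptake receptors are not among them and are given further on as a comparison list. The study compared 4 tissues of young mice, 10 weeks old (10W), with those of aged mice, 90 weeks old (90W): kidney, liver, lung and white adipose tissue, called WAT. Every mouse was a C57BL/6J male by the labels, with no mutant allele and no treatment named. Each of the 8 groups held 3 mice, and total RNA of each tissue was hybridised to a microarray of its own, 24 arrays in all. The labels do not say whether the 4 tissues came from the same mice, and the aged livers are numbered 1, 2 and 4.

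Cells make cholesterol from acetyl-CoA. HMG-CoA synthase (Hmgcs1) acts early in the mevalonate pathway, and isopentenyl diphosphate isomerase (Idi1) and farnesyl diphosphate synthase (Fdps) build farnesyl diphosphate, from which non-sterol products such as ubiquinone also branch. Squalene synthase (Fdft1) makes the committed step to sterols, and squalene epoxidase (Sqle) oxidises squalene. Lanosterol synthase (Lss) closes the sterol rings, and lanosterol demethylase (Cyp51) starts the conversion of lanosterol to cholesterol. The genes are known targets of the transcription factor SREBP-2, the product of Srebf2, which the escort protein Scap carries to the Golgi for cleavage when membrane sterol is low and which Insig proteins hold back when sterol is high. The liver is the best known site of this synthesis.

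Promoter sequences are shown for Hmgcs1, Idi1 and Cyp51, whose signals fell most with age in the kidney. RefSeq (GRCm38.p6) windows from 250 bases before to 50 bases after the start site were found for 4 of the 7 genes, the fourth being Lss. Capitals mark the NF-Y box CCAAT, printed as its reverse complement where it lies on the other strand, and a core of the sterol regulatory element, TCACNCCAC, both searched on both strands.
Hmgcs1, chr13:119690101-119690400, plus strand: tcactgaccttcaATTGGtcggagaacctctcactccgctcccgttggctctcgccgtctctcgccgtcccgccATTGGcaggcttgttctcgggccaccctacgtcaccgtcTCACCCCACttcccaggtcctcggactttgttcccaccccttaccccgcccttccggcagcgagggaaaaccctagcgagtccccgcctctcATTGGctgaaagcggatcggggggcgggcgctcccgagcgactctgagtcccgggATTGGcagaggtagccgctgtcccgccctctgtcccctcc
Idi1, chr13:8885356-8885655, plus strand: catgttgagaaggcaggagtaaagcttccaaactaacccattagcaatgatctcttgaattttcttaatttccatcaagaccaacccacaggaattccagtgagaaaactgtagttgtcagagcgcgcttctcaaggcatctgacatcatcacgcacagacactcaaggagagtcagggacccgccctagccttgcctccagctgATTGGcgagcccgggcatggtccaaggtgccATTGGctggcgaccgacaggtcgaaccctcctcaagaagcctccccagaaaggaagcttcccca
Cyp51, chr5:4104648-4104947, minus strand: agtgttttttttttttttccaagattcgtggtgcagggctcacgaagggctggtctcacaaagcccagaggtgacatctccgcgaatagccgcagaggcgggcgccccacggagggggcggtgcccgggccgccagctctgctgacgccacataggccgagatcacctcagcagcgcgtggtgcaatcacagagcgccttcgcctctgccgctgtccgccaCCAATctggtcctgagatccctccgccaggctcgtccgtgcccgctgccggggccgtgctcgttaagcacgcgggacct
The sterol element core was found in 1 of the 4 windows, that of Hmgcs1, where TCACCCCAC begins at position -137, and in 1.24% of all 32851 promoter windows. CCAAT was found in all 4 windows, against 37.4% of all windows, and Hmgcs1 held 4 copies. The Sp1 box GGGCGG, not capitalised here, was also found in all 4 windows, against 35.7% of all windows. The 3 motifs did not overlap each other in these windows. A match is a description of letters and not of a bound site.

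Levels are given on the log2 scale as the processed fluorescence signal minus the 75th percentile of the same array, so a level of 0 means a signal at that percentile. Levels are compared between samples for 1 probe and never between probes. All 7 genes were well above background on all 24 arrays. A change is the 90W mean minus the 10W mean, and a gene is said to have risen or fallen where limma's moderated test gave a Benjamini-Hochberg adjusted p below 0.05 over all genes tested in that tissue. In whole tissue, fewer cells of a type and less RNA per cell cannot be told apart.

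Across the series, 58.6 to 71.1% of probes were well above background on an array, and replicate arrays of a group correlated at 0.942 to 0.995. Each tissue lay on a slide of its own that held both ages, so tissue and slide cannot be told apart while the ages are compared within a slide. The summed signals of marker genes of hepatocytes, lung epithelium, kidney epithelium and adipocytes were each highest in the tissue of that name, although 1 of the 6 adipocyte markers was brighter in liver than in WAT. The summed signal of 9 leukocyte markers, in units of the array's 75th percentile, was higher in the aged than in the young arrays of all 4 tissues, without overlap. It was 15.7 to 17.2 against 68.9 to 337 in liver, 119 to 172 against 260 to 440 in lung, 4.07 to 4.61 against 74.99 to 128 in kidney and 14.8 to 57.2 against 198 to 457 in WAT.

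In young mice, on the percentile scale, the 7 genes did not share 1 order of tissues. The 75th percentile signal of young arrays was 259 to 307 in liver and 460 to 618 in kidney. It was 763 to 819 in WAT and 844 to 914 in lung, so the scaling enters each difference between tissues. The orders given here were not read on another scale. Hmgcs1 was highest in the kidney, at 6.51 ± 0.10 (SD, n = 3, as for all means below), followed by liver at 5.11 ± 0.85, WAT at 4.65 ± 0.27 and lung at 3.70 ± 0.21. The kidney level was 1.40 above liver (adjusted p = 0.00155), while liver and WAT did not differ beyond their spread (adjusted p = 0.236). For Cyp51 and Idi1 the young kidney and the young liver did not differ beyond their spread. Cyp51 was 3.71 ± 0.09 in kidney and 2.97 ± 0.65 in liver (adjusted p = 0.164), and Idi1 was 4.004 ± 0.08 and 3.78 ± 0.95 (adjusted p = 0.581). Cyp51 was far lower in lung, at 0.34 ± 0.31, and in WAT, at 1.14 ± 0.49, which did not differ from each other beyond the spread (adjusted p = 0.135). Idi1 was 2.13 ± 0.12 in lung and 1.86 ± 0.09 in WAT (adjusted p = 0.491).

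The branch-point enzymes had the other order, with the young liver on top and the kidney at the bottom. Fdps was 5.92 ± 1.02 in liver, 3.82 ± 0.09 in lung, 3.79 ± 0.94 in WAT and 2.78 ± 0.14 in kidney. Its level in liver was 3.13 above that in kidney, 8.77-fold (adjusted p = 2.24e-06), and lung and WAT did not differ (adjusted p = 0.957). Fdft1 was 4.19 ± 0.50 in liver, 3.83 ± 0.32 in WAT, 2.99 ± 0.26 in lung and 2.49 ± 0.10 in kidney, with no call between liver and WAT (adjusted p = 0.196) or lung and kidney (adjusted p = 0.0813). Lss was highest in liver, at 2.31 ± 0.80, and lay at 1.17 ± 0.35 in WAT, 0.94 ± 0.08 in kidney and 0.55 ± 0.09 in lung, and no pair among the last 3 was called. Sqle was 3.73 ± 0.18 in kidney, 2.84 ± 0.14 in lung, 2.24 ± 1.27 in liver and 1.99 ± 0.89 in WAT. Kidney stood above liver (adjusted p = 0.0252) and WAT (adjusted p = 0.0106) for Sqle, and the other neighbours in that order were not called apart. Over the 6 pairs of young tissues, 27 of 42 member comparisons were called in a fit of all 24 arrays, and over all genes 63.6% of such comparisons were called. That fit, which gave the adjusted p of every tissue pair above, shares its estimate of a gene's spread over all tissues. The wide spread in liver and WAT therefore enters each pair. Some pairs were not called although their mice did not overlap, lung and kidney for Fdft1, Lss and Sqle and lung and WAT for Idi1 and Lss. Sqle was called between liver and kidney although its mice overlapped.

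With age, the synthesis genes fell in the kidney. Of the 7, 6 fell and none rose, with Cyp51, Idi1 and Hmgcs1 changed most and Fdps not called, and the 2 ages did not overlap for any of the 7. The kidney changed broadly, however: over 31505 genes tested there, 63.1% were called, 42.6% lower and 20.6% higher, and 70.7% had ages that did not overlap. The median change of the 7 genes was -0.61 and that of all genes tested was -0.23.

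Cyp51 levels in the 3 young kidneys were 3.68, 3.65 and 3.82, and in the 3 aged kidneys 0.61, 1.13 and 1.29. The gap between the ages was wider than the range within either. The change was -2.70 ± 0.18 (SE), 6.51-fold lower (adjusted p = 0.000151). A dimmer probe of Cyp51 changed by -2.65. Idi1 was 3.97, 3.94 and 4.10 in young and 1.09, 1.36 and 1.80 in aged kidneys. It fell by 2.59 ± 0.18 on the log2 scale, 6.00-fold (adjusted p = 0.000177), again with a gap wider than either age's range. Hmgcs1, the earliest enzyme of the set, was 6.43, 6.47 and 6.62 in young and 4.82, 5.11 and 5.43 in aged kidneys. It fell by 1.39 ± 0.16 on the log2 scale, 2.62-fold (adjusted p = 0.000798).

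The remaining genes changed less in the kidney. Lss fell by 0.61 ± 0.10 on the log2 scale (adjusted p = 0.00262), from 0.85 to 1.01 in young to 0.23 to 0.48 in aged kidneys. A second Lss probe changed by -0.51 and the third and dimmest by 0.14, so the probes of Lss did not all move one way. Sqle fell by 0.59 ± 0.14 (adjusted p = 0.0101), and its closest mice of the 2 ages were at 3.56 and 3.28. Fdft1 fell by 0.59 ± 0.10 (adjusted p = 0.00285), and its second probe changed by -0.58. Fdps, the enzyme between Idi1 and Fdft1, was 2.66 to 2.93 in young and 2.57 to 2.66 in aged kidneys, a change of -0.17 ± 0.10 (adjusted p = 0.175). Its nearest mice of the 2 ages were both at 2.66, so the ages of Fdps were barely apart.

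The falls of Cyp51, Idi1 and Hmgcs1 did not depend on the scaling, and those of the other 3 did. The 75th percentile signal was 460 to 618 in young and 788 to 862 in aged kidneys, so the scaling enters each change. With the arrays scaled on their spike-in RNA, the median change of all kidney genes became 0.13 and 64.6% of the called genes were higher, against 32.6% under the percentile scaling. Of all 31505 kidney genes 13866 were then called. On that scale Cyp51 changed by -2.34, Idi1 by -2.23 and Hmgcs1 by -1.03, all called, and Lss (-0.25), Sqle (-0.23), Fdft1 (-0.23) and Fdps (0.19) were not. Cyp51, Idi1 and Hmgcs1 were called under all 16 alternatives tried, leaving out each mouse included.

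Markers of other cells moved in the same kidneys, where 42.6% of all genes were called lower and 20.6% higher. The summed signal of 8 kidney epithelium markers was 675 to 795 in young and 247 to 451 in aged kidneys, with 5 of the 8 lower, 2 higher and a median change of -1.09. All 9 leukocyte markers were higher, with a median change of 3.47. The part of either in the fall of the synthesis genes was not tested.

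**Figure D1:**
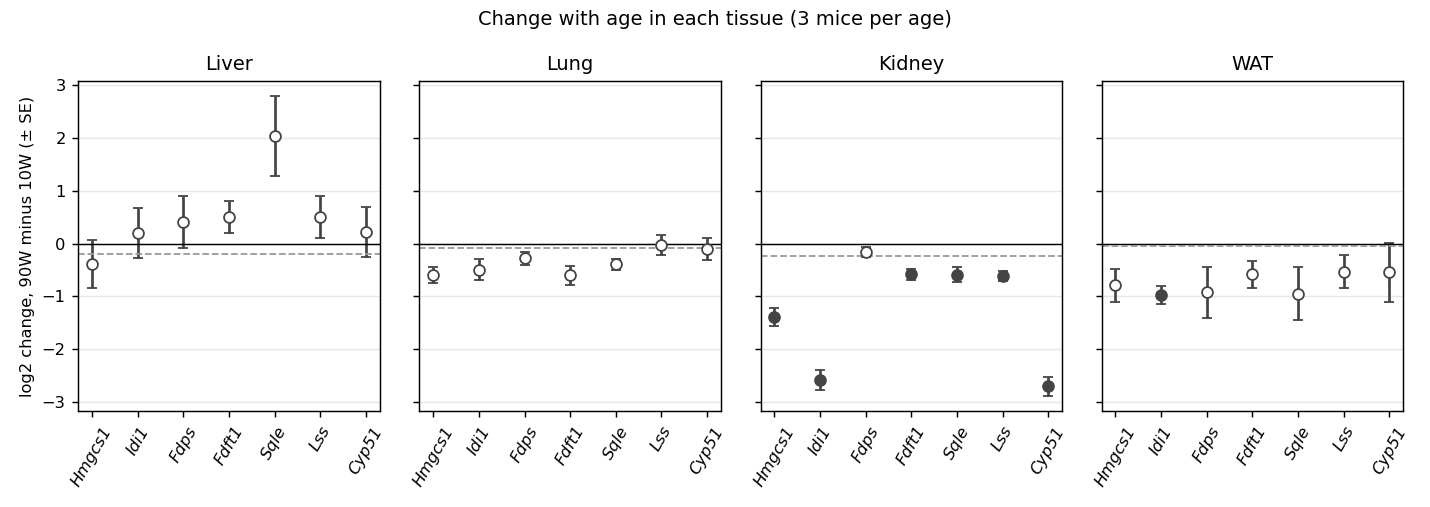
Change of each gene with age in each tissue, 90W minus 10W on the log2 scale with its standard error (y axis), filled where the adjusted p was below 0.05 and open otherwise. The dashed line is the median change of all genes in that tissue. Cyp51 and Idi1 lie near -2.7 and -2.6 in kidney, and no gene passes in liver or lung.

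In WAT all 7 changes were below 0, with a median of -0.79 against -0.05 over all genes, and only Idi1 passed the test. The median was -0.44 without young mouse 1. In WAT 2.59% of 30063 genes were called, 0.579% lower and 2.01% higher. Idi1 was 1.91, 1.75 and 1.90 in young and 0.80, 0.78 and 1.06 in aged WAT. Its ages were well apart, and it fell by 0.98 ± 0.17 on the log2 scale, 1.97-fold (adjusted p = 0.0440). The call was lost in 11 of 16 alternatives, among them every fit that left out a mouse, where the change stayed between -1.07 and -0.92, and the fit with the replicate number as a block (adjusted p = 0.124). Fdft1 was the other gene whose ages did not overlap, at 3.47 to 4.09 and 2.85 to 3.45, with a change of -0.58 ± 0.26 (adjusted p = 0.289). Ages of 28.8% of all WAT genes did not overlap.

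The other 5 genes overlapped between ages in WAT, and for 3 of them a single mouse stood apart. Sqle was 2.99 in young mouse 1 and 1.30 and 1.68 in the other young mice, against 0.61 to 1.59 in the aged. Fdps was 4.87 in young mouse 1 and 3.16 and 3.35 in the others. Cyp51 was 1.79 in aged mouse 3 and 0.22 and -0.22 in the other aged mice. The adjusted p of these 5 genes ran from 0.240 for Hmgcs1 to 0.631 for Cyp51. Markers of other tissues also moved in WAT. The summed hepatocyte signal was 5.26 to 25.0 in young and 0.74 to 1.93 in aged WAT, with 1 of 5 tested markers lower, and that of 2 brown adipocyte markers was 1.199 to 1.43 and 4.42 to 12.0, with 1 higher. Their part in these values was not tested.

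In lung all 7 changes were below 0 and none passed the test, with a median of -0.40 against -0.08 over all genes. In lung 5.61% of 30327 genes were called, 2.89% lower and 2.72% higher. Hmgcs1 was 3.46 to 3.87 in young and 2.98 to 3.33 in aged lungs, a change of -0.60 ± 0.16 (unadjusted p = 0.00866, adjusted p = 0.0822). Sqle (-0.40), Fdps (-0.28) and Fdft1 (-0.60) also had ages that did not overlap, as did 35.8% of all lung genes, and 4 of the 7 had an unadjusted p below 0.05 by limma, against 26.9% of all lung genes. The methods' t-test with adjustment called 0 of the 7. Idi1, at -0.49, passed the test when aged lung 1 was left out (-0.71, adjusted p = 0.0393). Lss and Cyp51, the late enzymes of the set, changed by -0.03 and -0.10. Cardiac muscle genes were present in the lungs, with a summed signal of 61.3 to 171 in young and 10.3 to 92.0 in aged, none called. The summed signal of 6 adipocyte markers was 38.3 to 65.7 in young and 7.97 to 25.7 in aged lungs, with 3 of the 6 lower and a median change of -2.93. The summed hepatocyte signal was 0.446 to 8.395 in young and 1.55 to 215 in aged lungs, with no marker called. The part of these cells in the values of the synthesis genes was not tested.

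The liver showed the opposite sign for most of the set and no call. Of the 7 changes, 6 were above 0 and the median was 0.41, against -0.20 over all genes. At an unadjusted p below 0.05 limma gave 1 of the 7, against 43.7% of all liver genes, and the methods' t-test with adjustment called 0. In liver 27.5% of 27906 genes were called, 10.5% higher and 17% lower, and the ages of 49.9% did not overlap, while those of all 7 synthesis genes did. Sqle differed most. Its level was 3.67, 1.83 and 1.22 in young livers 1, 2 and 3, and 4.40, 5.34 and 3.06 in aged livers 1, 2 and 4. Young liver 1 lay within the aged range and the other young livers lay below it. The change was 2.03 ± 0.76, 4.08-fold higher (unadjusted p = 0.0317, adjusted p = 0.0841). Sqle passed the test in 4 of 16 alternatives, without young liver 1 (2.74, adjusted p = 0.0488) or aged liver 4 (2.63, adjusted p = 0.0470), with spike-in scaling (adjusted p = 0.0150) and in the fit of all arrays (adjusted p = 0.00609). It did not pass in the others, among them those without aged liver 2 (1.49, adjusted p = 0.193) or young liver 3 (1.52, adjusted p = 0.204) and the methods' t-test (adjusted p = 0.212).

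The other liver changes did not pass the test. Fdft1 changed by 0.51 ± 0.30, Lss by 0.50 ± 0.40, Fdps by 0.41 ± 0.49, Cyp51 by 0.22 ± 0.47 and Idi1 by 0.20 ± 0.48. Hmgcs1 was the exception in sign, at -0.38 ± 0.46, with young livers at 5.94, 5.14 and 4.24 and aged livers at 4.75, 5.23 and 4.19. Without young liver 3 the median change of the 7 became -0.039, and the signs of Idi1, Fdps and Cyp51 turned, so the direction of the set in liver rested on that mouse. Among young livers the SD of the 7 genes ran from 0.50 to 1.27, and among young kidneys from 0.08 to 0.18.

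Whether an age change differed between tissues was tested in the fit of all 24 arrays, which treats the arrays as independent mice. It also shares its estimate of a gene's spread over all tissues, although the spread differed between them. The SE of the liver change of Sqle was 0.54 in that fit and 0.76 in the fit of liver alone, and for Fdft1 0.24 and 0.30. For Cyp51 in kidney the SE was 0.45 in the fit of all arrays and 0.18 in the fit of kidney alone. Of 42 comparisons of the 7 genes over 6 pairs of tissues, 11 were called, and over all genes 16.1% were called. Idi1 and Cyp51 changed differently in the kidney from each other tissue. For Cyp51 the change in kidney was 2.92 below that in liver (adjusted p = 0.00544) and 2.60 below that in lung (adjusted p = 0.00663). For Idi1 the change in kidney was 2.79 below that in liver (adjusted p = 0.000743). Sqle changed differently in the liver from each other tissue, by 2.98 against WAT (adjusted p = 0.0125). Fdft1 in liver differed by 1.11 from lung (adjusted p = 0.0328) and by 1.09 from WAT (adjusted p = 0.0326). Hmgcs1, Fdps and Lss had no called difference, and no gene was called between lung and WAT. The calls of Idi1 and Cyp51 between kidney and liver or lung held in all 31 alternatives, whereas those of Sqle between liver and kidney held in 18 and those of Fdft1 in 21. Leaving out young liver 1 gave 18 calls, and spike-in scaling gave 6.

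In liver, lung and kidney most of the 7 genes moved together from mouse to mouse within a group, and in WAT less so. Each level was set against the mean of its own tissue and age group, which removes both the tissue and the age. In young liver 1 all 7 genes lay above the group mean, by 0.56 to 1.43, and in young liver 3 all 7 lay below it, by 0.40 to 1.02. Aged liver 2 lay above for all 7 and aged liver 4 below for all 7. In 11 of the 24 arrays all 7 deviations had the same sign, and in 18 at least 6 did. By tissue, at least 6 did in 5 of 6 arrays of liver and of kidney, 6 of 6 of lung and 2 of 6 of WAT. These counts were not made for other sets of genes. Deviations in lung and kidney were smaller, between -0.40 and 0.43. The 21 pairs of genes correlated at 0.41 to 0.88 over 24 arrays, with a median of 0.72. The arrays share labelling and scanning with their slide, and the 3 deviations of a group sum to 0. The median was 0.87 without the WAT arrays and 0.47 without the liver arrays, where the lowest pair was -0.12, so much of the pattern came from the livers. Without the 2 arrays farthest from their group mean it was 0.62.

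**Figure D2:**
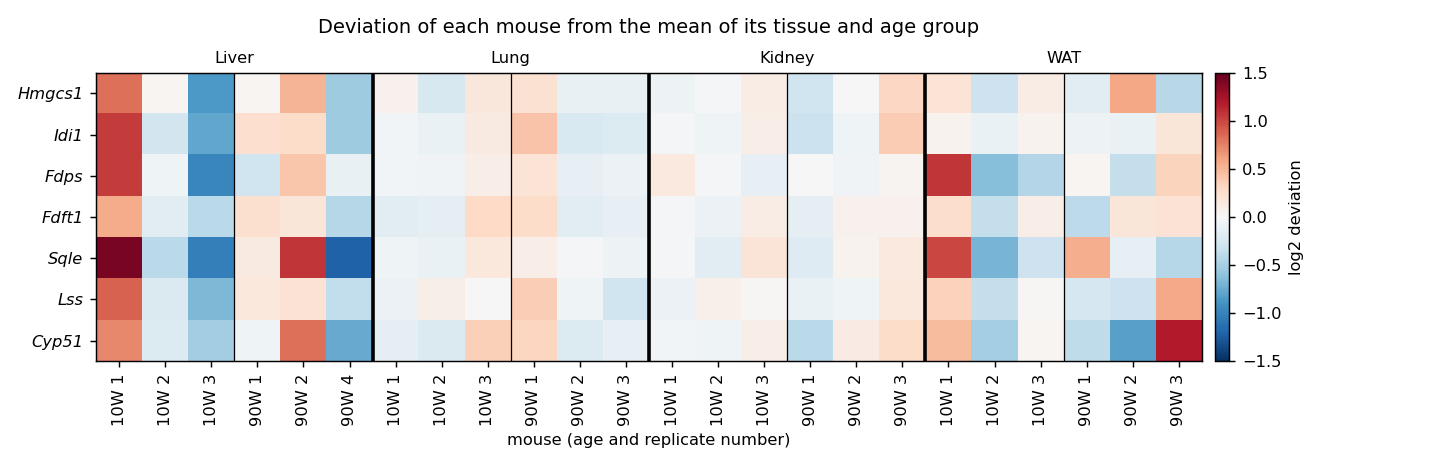
Deviation of each mouse from the mean of its own tissue and age group on the log2 scale (colour), for the 7 genes (rows) and the 24 arrays (columns, grouped by tissue and age). Young liver 1 is above and young liver 3 below its group mean for all 7 genes, and in aged WAT the genes differ from each other.

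Of 15504 other genes with a symbol, the 5 whose deviations were most like the mean deviation of the 7 were Nsdhl (r = 0.92), Mvd (0.91), Slc15a2 (0.90), Has2os (0.82) and Msmo1 (0.82) over 24 arrays. Over all those genes the median r was -0.09 and the 95th percentile 0.47. Nsdhl, Mvd and Msmo1 code for other enzymes of the same pathway, Slc15a2 for a peptide transporter, and Has2os is an antisense transcript of Has2. Without the liver arrays Nsdhl was at 0.88 and Mvd at 0.82, but Msmo1 fell to 0.46 and Has2os to 0.23. The 95th percentile over all genes was then 0.64. The 5 most alike were then Ldhal6b, Nat8, Cyp2d9, Pbld2 and Ak4, none of them on the lists below. Srebf2 correlated at 0.73 over all 24 arrays and at 0.48 without the liver arrays.

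Other genes of cholesterol biology were described by lists, and in the kidney the rest of the synthesis pathway also fell. Of 12 other synthesis enzymes tested, 11 fell and none rose, with a median change of -0.81, against the 42.6% of all kidney genes that fell. Mvd, which makes isopentenyl diphosphate, changed by -1.36 ± 0.14 (adjusted p = 0.000518) and Nsdhl by -1.21 ± 0.15 (adjusted p = 0.00102). The exception was Pmvk, at -0.19. With spike-in scaling 7 of the 12 fell, with a median of -0.45. Of all 31505 kidney genes 13866 were then called, 64.6% of the calls higher. Of 6 genes of the non-sterol branch 5 fell, led by Pdss1, which makes the ubiquinone side chain, at -1.37. Of 7 genes of SREBP control, Insig1 (-1.27), Scap (-0.72) and Insig2 (-0.60) fell, while Srebf2 itself changed by 0.040 ± 0.12 (adjusted p = 0.789). These 3 of 7 are a share near the 42.6% of all kidney genes that fell. With spike-in scaling 1 gene of that list fell and Srebf2 rose (0.40, adjusted p = 0.0434), and the median moved from -0.16 to 0.20.

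Among uptake and efflux genes of the kidney some rose and some fell. Of 11 uptake and transport genes 4 rose and 2 fell, with a median of 0.29, where 20.6% of all kidney genes rose and 42.6% fell. The balance depended on the scaling, with 6 higher and 0 lower on the spike-in scale (median 0.65) and 3 higher and 4 lower with median centring. So did that of all 31505 kidney genes. Spike-in scaling called 13866 of them, 64.6% of the calls higher, and median centring 21364, 26.6% of the calls higher. Lrp1, a large endocytic receptor, rose by 1.90 ± 0.22 (adjusted p = 0.000722), and Scarb1, the HDL receptor, by 0.78 ± 0.08 (adjusted p = 0.000513). Of 10 genes of efflux, storage and LXR control 5 rose and 3 fell, and on the spike-in scale 6 rose and 1 fell. Apoe, an apolipoprotein made by macrophages among other cells, rose by 2.03 ± 0.13 (adjusted p = 0.000135), from levels that did not overlap. Of 6 bile acid genes tested 4 fell and 1 rose, and Cyp7b1, an oxysterol hydroxylase, fell by 2.64 ± 0.42 (adjusted p = 0.00242). Lrp1, Apoe and other genes of these lists are also expressed in leukocytes, whose markers rose in the same kidneys, and the part of that was not tested.

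**Figure D3:**
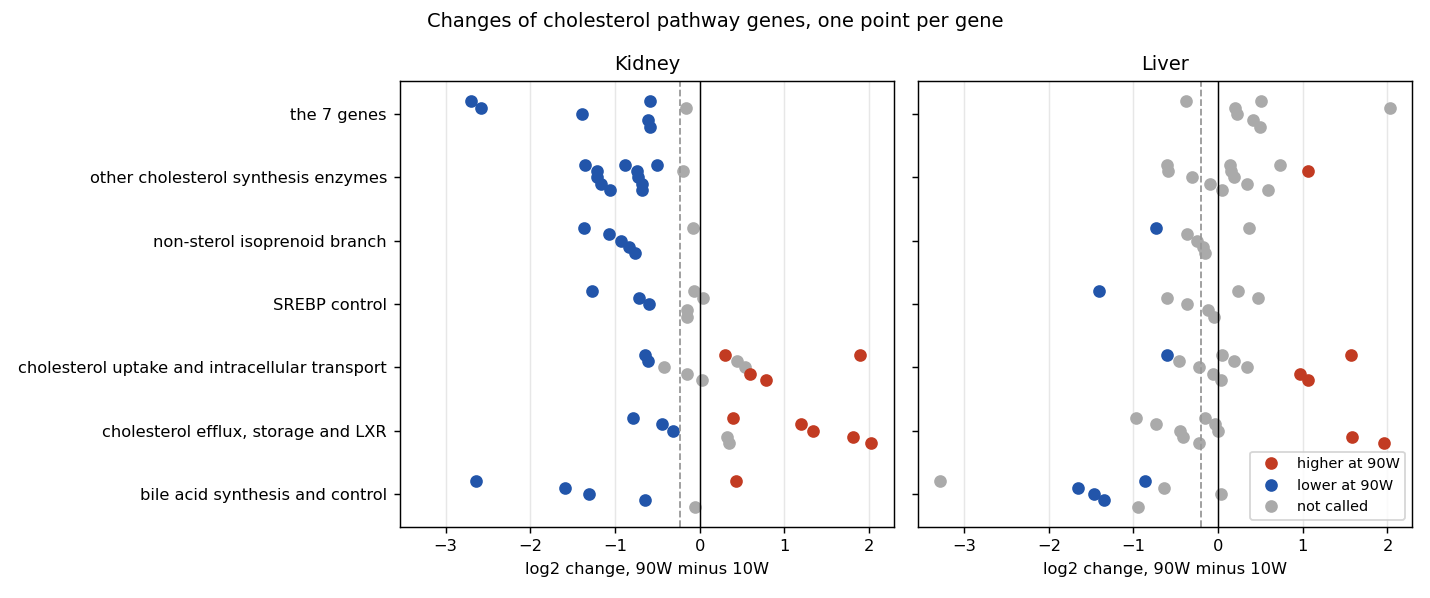
Change with age of every tested gene of 7 lists (rows) in kidney and liver, 90W minus 10W on the log2 scale (x axis), 1 point per gene, red where higher, blue where lower and grey where not called, with the median of all genes as a dashed line. In kidney the upper 3 rows hold no called gene above 0.

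In liver fewer of the same genes were called than in kidney, as was so over all genes, 27.5% against 63.1%. Of all liver genes 10.5% rose and 17% fell. Of the 12 other synthesis enzymes 1 rose and none fell, with a median change of 0.14. Of 11 uptake and transport genes 3 rose, among them Npc2 (1.06), which carries cholesterol out of lysosomes, and Mylip (0.97), and 1 fell. Scarb1 changed by -0.23 ± 0.16 (adjusted p = 0.314) and Srebf2 by 0.47 ± 0.33 (adjusted p = 0.304). Soat1, which esterifies cholesterol, rose by 1.95 ± 0.31 (adjusted p = 0.00783), and Abcg1, a sterol exporter, by 1.59 ± 0.19 (adjusted p = 0.00343). Of 8 bile acid genes 4 fell, among them Hsd3b7 by 1.65 ± 0.24 (adjusted p = 0.00582), and the list's median was -1.15. Of 9 leukocyte markers 5 were higher in aged liver, and their part in the rise of Soat1 and Abcg1 was not tested.

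In WAT 3 genes over all lists were called, 2 higher and 1 lower, where 2.01% of all WAT genes were higher and 0.579% lower. Lipa, the lysosomal acid lipase, rose by 3.05 ± 0.40 (adjusted p = 0.0233) and Abcg1 rose by 2.57 ± 0.44 (adjusted p = 0.0439). Neither stayed called in every fit without a mouse. Leukocyte markers were higher in the same samples, 6 of 9 called. The median of the 12 other synthesis enzymes was -0.67, with 10 of 12 below 0. Scarb1 changed by -0.46 ± 0.27 and Srebf2 by 0.14 ± 0.25, neither called. In lung none of the listed genes was called, at -0.11 for the median of the 12 enzymes, and Srebf2 and Scarb1 changed by -0.27 ± 0.11 and 0.12 ± 0.11.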

How the data were processed

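Total RNA was labelled with Cy3 and read on 24 1-colour Agilent arrays. The authors made the intensity values with Feature Extraction 11.0.1.1, per the file headers, and deposited background-subtracted processed signals, unscaled between arrays. The headers name a mouse design (mm9) and the methods a human kit. Probe accessions were matched to RefSeq genes of GRCm38.p6, 32994 of 56605 probes (58.3%). Outlier spots (1841) were left out, spots of a probe were averaged, and the array's 75th percentile was subtracted on the log2 scale. The number of arrays limits the precision.

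Genes were tested in a tissue where the probe was well above background on at least 3 of 6 arrays, on the brightest probe per gene, with limma 3.58.1 in R 4.3.3 and Benjamini-Hochberg adjustment over all genes. Tissues were compared in 1 fit of all arrays with 25772 genes. The scripts were tested on simulated data. The labels do not name litters. A p-value sets a mean difference against the spread between these mice, 3 per age and tissue. In the fit of all arrays that spread is shared over tissues that may come from the same mice.

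The members, lists and tests were chosen with earlier results of these data known. Genes named in the text were the 7 members, Srebf2 and Scarb1, the 3 largest called changes per tissue over the lists with ages that did not overlap, and the 5 genes with the most similar deviations. Other list genes, Mvd and Insig1 among them, and the 5 genes most alike without the liver arrays were named after their values were seen. Some genes of the lists are counted but not reported singly here. Alternatives covered background correction, scaling, filter, probe choice, fit, replicate block, the methods' t-test and leaving out each mouse.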

Additional observations from a re-analysis of the deposited data

Results flagged for a closer look

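In groups of 3 mice no test for a single outlying sample was run. The age change, 90W minus 10W on the log2 scale, of 4 genes differed between tissues by the test of the difference in the fit of all 24 arrays, over 31 alternatives each. For Cyp51 the change in liver minus that in kidney was 2.92, and in lung minus kidney 2.60, both called in all 31. The change of Cyp51 in kidney minus that in WAT was -2.16, called in 29. For Idi1 the same differences were 2.79 and 2.09, called in all 31, and -1.61, called in 29. For Sqle the change in liver was above that in WAT by 2.98 (all 31), in kidney by 2.62 (18 of 31) and in lung by 2.42 (20 of 31). For Fdft1 the change in liver was above that in lung by 1.11 and in WAT by 1.09, each called in 21 of 31. The lowest and highest adjusted p of the Sqle difference between liver and kidney were 0.00466 and 0.0989. Tissue and slide cannot be told apart in these differences, and the fit shares its estimate of a gene's spread over tissues whose spread differed.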

How the results depend on the processing

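With 3 mice per group, 1 array can decide a call. Spike-in scaling called 1 of the 7 genes in liver, 3 in kidney (median change -0.25, Fdps 0.19) and 0 in WAT, and 6 differences between tissues in place of 11. Over all genes it called 3478 of 27906 in liver, 13866 of 31505 in kidney and 732 of 30063 in WAT. The fit of all arrays called 1 of the 7 in liver and 3 in kidney. Over all 25772 genes it called 10971 in liver and 12027 in kidney. In WAT quantile normalization, no filter, the methods' t-test and the replicate block each called 0. No filter gave 7 differences between tissues. Without 1 mouse the count was 0 to 1 in liver and in lung and 0 in all 6 fits in WAT, and 7 to 18 for the differences between tissues, 18 without young liver 1 and 7 without young liver 2 or 3 or aged liver 1 or 2. The liver median ran from -0.039 to 0.79. In liver Hmgcs1 ran from -0.82 to 0.031, Idi1 from -0.19 to 0.73, Fdps from -0.079 to 0.94 and Cyp51 from -0.19 to 0.60. In lung Lss ran from -0.22 to 0.12 and Cyp51 from -0.26 to 0.078. Without 1 mouse Srebf2 ran from -0.072 to 0.097 in kidney, where spike-in scaling gave 0.40 (called, adjusted p = 0.0434), and from -0.014 to 0.34 in WAT. Other reversals, none of a called change, were Fdps in liver under the block (-0.021) and in kidney under quantile normalization (0.097), and Srebf2 in kidney under median centring (-0.069). The causes were not tested.

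The replicate block left 6 genes called in kidney, 27 pairs of young tissues and 13 differences between tissues, and removed the call of Idi1 in WAT. Over all kidney genes the block called 19121 of 31505. Deviations of same-numbered young and aged mice correlated at -0.17 to 0.18 over 11 pairs, so the numbers were not taken as a pairing. The number of pairs of young tissues called was 24 to 31 over 31 alternatives. That count does not show whether the order of the tissues held.

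Counts over all genes moved more. In liver 7677 became 3478 with spike-in scaling, where 67.9% of calls were higher against 38.1%, and normexp gave 28.0% higher. No filter gave 16124, the t-test 3106, the block 1698 and fits without 1 mouse 2387 to 6886. In lung 1700 became 440 with no filter, 756 in the fit of all arrays, 231 by the t-test, 1 with the block and 2 to 1833 without 1 mouse, 2 without young lung 1. In kidney 19893 became 12027 in the fit of all arrays. In WAT 779 became 489 with no filter, 5587 in the fit of all arrays, 1 by the t-test, 364 with the block and 77 to 582 without 1 mouse, 77 without aged mouse 3.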
